A study of Mus musculus with 9 samples.

Results

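The genes described here are 36 genes of cell division, 20 that act in mitosis and 16 that act in DNA replication. They were chosen by symbol, and each was found once among the 53379 gene IDs of the deposited tables through the GENCODE M21 annotation of GRCm38. Ube2c was left out because its exons overlap those of the muscle gene Tnnc2. RNA was sequenced from whole knee joints of mice in 9 libraries, 3 for each of 3 groups. In the Luc and PC2 groups, male C57BL/6 mice had the anterior cruciate ligament cut (ACLT) at 8 weeks of age, which destabilises the joint and is used as a model of osteoarthritis. A lentivirus expressing Luc or PC2 was injected into the operated joint 1 week later, and joints were taken after a further 8 weeks. The Non surgery group is labelled only as not operated; the labels give neither its age nor whether anything was injected. The RNA of a group was mixed before the libraries were made, so each group is 1 pool, its 3 libraries are technical repeats, and p-values measure technical spread only and hold no difference between mice.

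A dividing cell first copies its DNA and then separates the copies. Before S phase, CDC6 and CDT1 load the MCM helicase (MCM2 to MCM7) on replication origins; CDC45 and GINS switch it on, and polymerase alpha with its primase and the sliding clamp PCNA build new strands from nucleotides supplied by ribonucleotide reductase and thymidylate synthase. In G2 and M phase, cyclins A and B with CDK1, the Polo and Aurora kinases, motor proteins of the kinesin family and the kinetochore drive the separation, and the spindle checkpoint holds it until all chromosomes are attached. Genes of replication are mostly switched on by E2F factors at the start of S phase. Those of mitosis are switched on later, by MuvB complexes with B-MYB and FOXM1. In an adult knee joint most dividing cells are those of the bone marrow, with further division in the growth plate, synovium and repairing tissue.

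Each library held 17835989 to 19004316 counts in genes. The members took between 0.415% and 0.487% of these counts in each library. All 36 passed the filter on low counts. The deepest was Mki67 and the thinnest Gins2, at 6.25 ± 0.229 CPM (counts scaled to a common library size with TMM factors; SD, n = 3 here and below) in the Non surgery libraries. CPM per kilobase of annotated exon divides by the joined exons of all isoforms, which can far exceed 1 transcript. Birc5 had 3402 such bases against 947 in its principal transcript, and Rrm1 11012 against 3997. The order of genes below therefore holds for this measure only and is no ranking of transcript abundance. In the Non surgery libraries it was highest for Mki67 (133 ± 2.16), Rrm2 (83.4 ± 1.73), Pcna (75.1 ± 3.10) and Ccnb2 (64.3 ± 2.51). The lowest values were those of Gins2 (1.52 ± 0.0559), Pola1 (3.72 ± 0.289) and Tyms (5.26 ± 0.132). On the same measure Pcna stood first in the PC2 libraries at 102 ± 2.73, before Rrm2 (84.9 ± 1.40) and Mki67 (71.9 ± 0.849).

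Luc against Non surgery sets joints with cut ligament and Luc virus beside joints without surgery. The members split by phase of the cell cycle: all 20 mitosis genes fell in Luc against Non surgery libraries and 14 of the 16 replication genes rose, at an adjusted p under 0.05 in edgeR's quasi-likelihood test. Mki67, the gene of the Ki-67 proliferation antigen, fell 1.41-fold from 1342 ± 21.8 to 949.6 ± 2.78 CPM, while Pcna rose 1.36-fold from 180.3 ± 7.44 to 246 ± 6.91 CPM. The median log2 fold change was -0.37 over the mitosis genes (about 1.29-fold lower) and 0.27 over the replication genes (1.2-fold higher), against 0.025 over all genes tested. Rrm1 and Cdc45 did not pass. No member reached a 2-fold change, which 9.43% of all tested genes exceeded upward and 6.32% downward. Of 17478 genes tested, 31.1% were called higher and 27.7% lower, so a call by itself is common here; the counts to set against it are 20 of 20 mitosis genes lower with 0 higher, and 14 of 16 replication genes higher with 0 lower. Luc and Non surgery values were fully apart in 20 mitosis genes (all lower) and 15 replication genes (14 higher, and Rrm1 lower), against 33.1% of all genes higher and 29.8% lower.

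PC2 against Luc sets the 2 viruses side by side, both after surgery. Here both kinds of gene were mostly lower in PC2 than in Luc libraries: 12 of 20 mitosis genes fell and 3 rose, and 10 of 16 replication genes fell and 0 rose. The background was 18.6% of all tested genes lower and 16.1% higher. The median was -0.19 over the mitosis genes and -0.16 over the replication genes, against 0.008 over all genes. The 3 mitosis genes that rose were Birc5 (1.25-fold), the survivin gene, Aurka (1.16-fold) and Cdk1 (1.08-fold), and the largest fall was that of Pola1 (1.47-fold), the catalytic subunit of polymerase alpha. Libraries were fully apart in 28 members, 4 higher and 24 lower, against 23.3% of all genes higher and 24.7% lower. No member changed 2-fold; 1.3% of all genes did so upward and 2% downward.

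Set directly against unoperated joints, the PC2 libraries had 19 of 20 mitosis genes lower and 8 of 16 replication genes higher, with 2 replication genes lower. Of all genes 31.2% were lower and 31.5% higher in this comparison. The medians were -0.51 for mitosis and 0.11 for replication genes, against 0.010 over all genes. Libraries were fully apart in 11 members higher and 21 lower, against 33.5% and 32.5% of all genes. Cenpf had the largest change of any member, 1.96-fold lower; none reached 2-fold, which 9.83% of all genes exceeded upward and 6.53% downward. This comparison shares its libraries with the other 2, so it adds each gene's total distance and is no separate evidence.

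**Figure D1:**
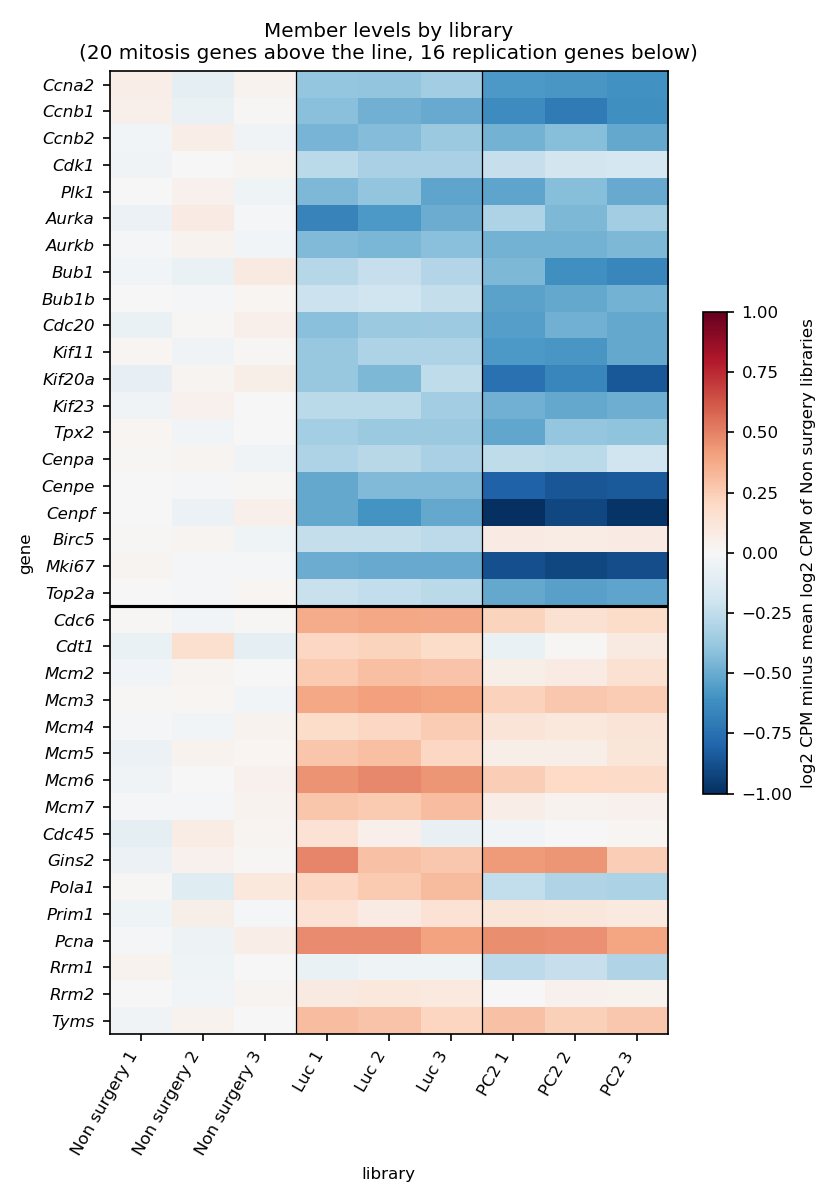
Level of each of the 36 genes (rows) in each of the 9 libraries (columns), as log2 CPM minus the mean log2 CPM of the 3 Non surgery libraries; blue is lower, red is higher, and the line parts 20 mitosis from 16 replication genes. The mitosis rows are blue in the Luc libraries and mostly darker in the PC2 libraries (median log2 fold changes of -0.37 and -0.51 against Non surgery), while the replication rows are mostly red in Luc and paler in PC2 libraries (0.27 and 0.11).

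Because the direction in operated joints followed the phase of the cycle, the promoters of the members were searched for the letters that are bound in each phase. RefSeq windows on GRCm38.p6, from 250 bases before to 50 after the start of each gene, were at hand for 16 mitosis and 14 replication members. The cell cycle homology region bound by the MuvB complexes was searched as TTTGAA, the box of the NF-Y factor as CCAAT, and the E2F site as TTGGCGC with the variant letters TTCCCGC, the variant letters TTCGCGC and the variant letters TTGCCGC, all on both strands; neighbouring E2F matches can overlap each other, and an E2F match on the reverse strand can share up to 4 bases with a CCAAT box. TTTGAA was present in 12 of 16 mitosis and 2 of 14 replication members (Mcm2 and Cdc45), against 20.2% of all 27025 genes with a window. An E2F match was present in 3 of 16 mitosis members (Mki67, Cdk1 and Ccnb1) and 10 of 14 replication members, against 10.9% of all these genes. CCAAT was found in 15 of 16 and 11 of 14, against 41.1%. The same search over cell cycle genes that are no members gave TTTGAA in 43 of 67 mitosis and 7 of 36 replication genes, and an E2F match in 19 and 20. Such matches are letters in a window and not shown sites.

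The 200 bases before the start are shown for 8 members, 4 mitosis genes that fell in both steps or, as Cdk1, in the first only, then Birc5, the mitosis gene that rose most in PC2 libraries, and 3 replication genes with E2F letters. They read 5′ to 3′ on the strand of the gene, and capitals mark the motif letters named above.
Mki67, chr7:135716380-135716579, minus strand: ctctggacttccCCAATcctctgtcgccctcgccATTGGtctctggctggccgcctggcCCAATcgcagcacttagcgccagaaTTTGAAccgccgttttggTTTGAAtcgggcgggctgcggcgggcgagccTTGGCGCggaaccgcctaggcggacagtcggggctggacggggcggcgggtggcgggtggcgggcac
Cdk1, chr10:69352913-69353112, minus strand: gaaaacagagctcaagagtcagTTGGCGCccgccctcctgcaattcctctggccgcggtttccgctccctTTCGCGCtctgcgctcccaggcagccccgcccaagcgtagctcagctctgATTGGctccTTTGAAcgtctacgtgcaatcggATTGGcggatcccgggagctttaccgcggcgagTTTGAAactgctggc
Cdc20, chr4:118437344-118437543, minus strand: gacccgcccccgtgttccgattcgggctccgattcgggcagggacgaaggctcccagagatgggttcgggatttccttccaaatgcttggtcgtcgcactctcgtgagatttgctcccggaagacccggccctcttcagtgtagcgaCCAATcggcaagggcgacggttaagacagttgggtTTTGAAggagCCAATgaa
Top2a, chr11:99024190-99024389, minus strand: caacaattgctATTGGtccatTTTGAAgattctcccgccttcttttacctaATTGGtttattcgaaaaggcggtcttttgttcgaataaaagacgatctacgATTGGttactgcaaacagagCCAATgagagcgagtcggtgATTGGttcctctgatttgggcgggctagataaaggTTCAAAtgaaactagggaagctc
Birc5, chr11:117849037-117849236, plus strand: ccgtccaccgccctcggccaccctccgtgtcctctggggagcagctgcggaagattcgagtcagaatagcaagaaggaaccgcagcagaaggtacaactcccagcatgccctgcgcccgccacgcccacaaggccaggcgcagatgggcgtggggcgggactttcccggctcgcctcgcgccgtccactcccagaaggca
Mcm6, chr1:128359706-128359905, minus strand: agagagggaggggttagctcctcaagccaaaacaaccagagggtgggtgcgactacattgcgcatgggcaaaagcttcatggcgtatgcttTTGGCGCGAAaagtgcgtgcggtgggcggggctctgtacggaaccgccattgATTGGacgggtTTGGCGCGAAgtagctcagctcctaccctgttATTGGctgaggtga
Mcm5, chr8:75109309-75109508, plus strand: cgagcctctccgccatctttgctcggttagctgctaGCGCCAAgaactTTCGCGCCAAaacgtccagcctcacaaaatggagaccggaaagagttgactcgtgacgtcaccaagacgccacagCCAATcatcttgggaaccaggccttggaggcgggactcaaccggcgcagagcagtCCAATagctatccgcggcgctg
Pola1, chrX:93632156-93632355, minus strand: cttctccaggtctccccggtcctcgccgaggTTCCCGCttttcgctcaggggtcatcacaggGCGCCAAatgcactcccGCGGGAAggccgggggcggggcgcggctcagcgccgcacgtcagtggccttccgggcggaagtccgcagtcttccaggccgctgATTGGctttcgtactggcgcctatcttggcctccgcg
In these 200 bases Mki67 held 2 TTTGAA matches, 3 CCAAT boxes and 1 E2F match, and Cdk1 held 2 of each. Cdc20 and Top2a had TTTGAA (1 and 2) with 2 and 5 CCAAT boxes and no E2F letters, while Birc5 had none of the 3 motifs in this window. Mcm6 showed 4 E2F matches, which overlap in pairs, and Mcm5 and Pola1 3 each, with 2, 2 and 1 CCAAT boxes and no TTTGAA.

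The plot of fold changes by gene sets the 3 comparisons side by side, with each gene on 1 line.

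**Figure D2:**
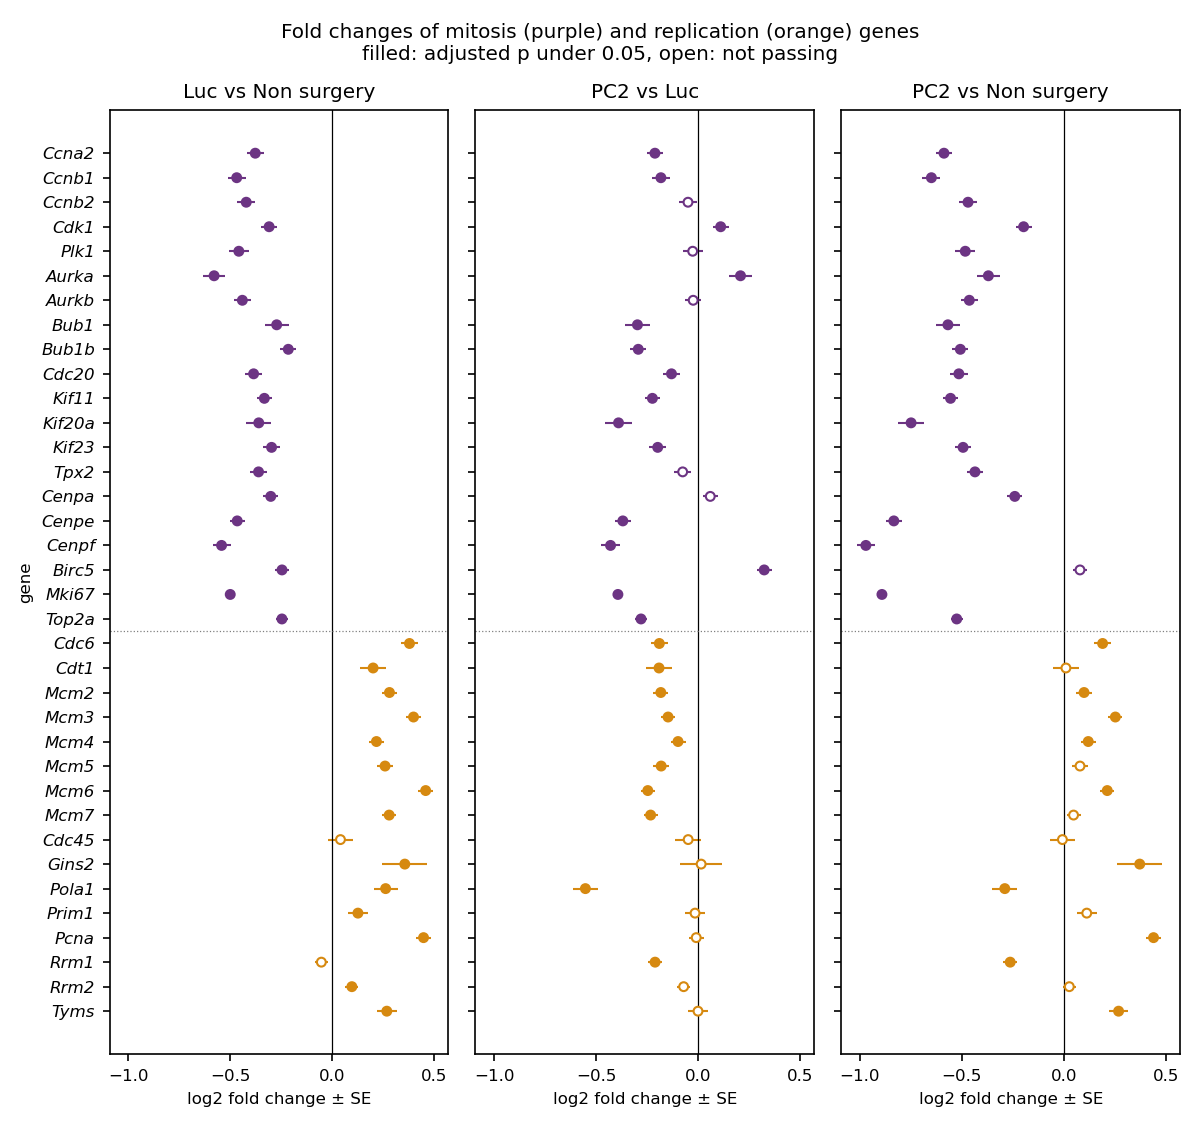
log2 fold change (points) with its standard error (bars) of each member in Luc against Non surgery, PC2 against Luc and PC2 against Non surgery; purple marks mitosis and orange replication genes, and filled points passed an adjusted p of 0.05. In the left panel all 20 purple points lie below 0 and 15 of 16 orange points above it; in the middle panel Birc5 (0.32), Aurka (0.21) and Cdk1 (0.11) lie above 0.

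Mki67 and Top2a, which encode the sheath protein of mitotic chromosomes and the topoisomerase that untangles sister DNA, took the most CPM of the mitosis members. Mki67 had CPM of 1368, 1331 and 1329 in the Non surgery, 953, 948 and 948 in the Luc and 730.1, 714 and 726 in the PC2 libraries. The 3 groups were apart from each other in that order: the log2 fold change was -0.50 ± 0.0250 (SE, as for all log2 fold changes below; adjusted p = 2.36e-11) for Luc against Non surgery and -0.39 ± 0.0250 (adjusted p = 5.61e-09) for PC2 against Luc. Top2a had CPM of 446, 439 and 452 in the Non surgery, 382, 376 and 369 in the Luc and 313, 306 and 309.9 in the PC2 libraries. It also fell in both steps, with log2 fold changes of -0.25 ± 0.0302 and -0.28 ± 0.0303 (adjusted p = 2.43e-06 and 2.62e-06), and the groups did not overlap.

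Of the 7 cyclins and mitotic kinases, all fell in Luc libraries, but they went separate ways between Luc and PC2. Ccna2, the cyclin of S and G2 phase, had CPM of 196, 175 and 192 in the Non surgery, 144, 143 and 147 in the Luc and 126, 125 and 124 in the PC2 libraries. Ccnb1, the main mitotic cyclin, had CPM of 115, 105 and 112 in the Non surgery, 82.7, 79.4 and 77.9 in the Luc and 71.7, 67.7 and 72.2 in the PC2 libraries. Both fell in each step without overlap of libraries, Ccna2 by 0.38 and then 0.21 and Ccnb1 by 0.47 and then 0.18 on the log2 scale (adjusted p = 0.00084 and 0.00445 for the second step). Ccnb2, the second B-type cyclin, fell 1.34-fold in Luc libraries and had -0.05 between PC2 and Luc (adjusted p = 0.415), with overlapping libraries.

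Cdk1, the kinase that these cyclins activate, had CPM of 86.2, 89.0 and 90.4 in the Non surgery, 73.3, 70.5 and 70.6 in the Luc and 75.4, 77.8 and 78.3 in the PC2 libraries. All Luc libraries lay under all Non surgery libraries, and the PC2 libraries lay between the 2 groups. Its log2 fold change was -0.31 ± 0.0390 in Luc against Non surgery and 0.11 ± 0.0390 in PC2 against Luc (adjusted p = 0.0372), and the second value no longer passed once Luc replicate 2, Luc replicate 3, PC2 replicate 2 or PC2 replicate 3 was left out (adjusted p = 0.113, 0.114, 0.0988 and 0.113). Aurka, the kinase of centrosomes and spindle poles, had CPM of 64.9, 71.5 and 66.6 in the Non surgery, 42.6, 45.5 and 47.9 in the Luc and 54.5, 49.6 and 53.0 in the PC2 libraries. It showed the largest fall of any member in Luc libraries, -0.58 ± 0.0552, and rose again by 0.21 ± 0.0556 in PC2 libraries (adjusted p = 0.00819), where it stayed under the Non surgery level (-0.37, adjusted p = 1.76e-05). Plk1, the Polo kinase, and Aurkb, the kinase of the chromosomal passenger complex, fell 1.37-fold and 1.36-fold in Luc libraries and had -0.03 and -0.02 in PC2 against Luc, neither passing (adjusted p = 0.718 and 0.693).

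The 3 genes of the spindle checkpoint and its target fell in both steps. Bub1, a kinase that recruits checkpoint proteins to kinetochores, had CPM of 46.7, 45.4 and 50.8 in the Non surgery, 39.1, 40.5 and 38.7 in the Luc and 34.9, 31.1 and 30.3 in the PC2 libraries. Bub1b, which encodes the checkpoint protein BUBR1, had CPM of 79.0, 78.3 and 80.3 in the Non surgery, 68.3, 69.1 and 67.3 in the Luc and 54.5, 55.4 and 57.1 in the PC2 libraries. For these 2 genes the first step was -0.27 and -0.21 and the second -0.30 ± 0.0599 and -0.29 ± 0.0391 (adjusted p = 0.00109 and 2.45e-05), and no libraries of different groups overlapped. Cdc20, the activator of the anaphase-promoting complex that the checkpoint restrains, had CPM of 78.6, 82.8 and 85.3 in the Non surgery, 61.6, 63.6 and 63.7 in the Luc and 56.0, 58.9 and 57.8 in the PC2 libraries. Its fall in Luc libraries was -0.38 ± 0.0427; that in PC2 against Luc, -0.13 ± 0.0432 (adjusted p = 0.0282), ended without Luc replicate 2 or 3 or PC2 replicate 1 or 3 (adjusted p = 0.0876, 0.0944, 0.117 and 0.0742).

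Among the motors and spindle factors, Kif20a, a kinesin of the cell midzone in cytokinesis, moved most. Kif20a had CPM of 45.5, 49.2 and 50.2 in the Non surgery, 37.1, 35.4 and 40.4 in the Luc and 28.7, 30.7 and 26.8 in the PC2 libraries. The groups were apart, with log2 fold changes of -0.36 and -0.39 that add to -0.75 ± 0.0633 (adjusted p = 2.32e-08); 29.3% of its exon bases lie opposite exons of Cdc23, which can cost it reads if strand was not used in counting. Kif11, the kinesin that pushes spindle poles apart, had CPM of 193, 187 and 193 in the Non surgery, 147, 155 and 154 in the Luc and 128, 128 and 134 in the PC2 libraries. Kif23, another midzone kinesin, fell by 0.30 and then 0.20 in the 2 steps, close to Kif11 (-0.33 and -0.22). Tpx2, which nucleates spindle microtubules and activates Aurora A, had CPM of 143, 138 and 141 in the Non surgery, 111, 109 and 109 in the Luc and 98.0, 108 and 106 in the PC2 libraries. It fell 1.28-fold in Luc libraries; the second step, -0.08, did not pass (adjusted p = 0.168), although the libraries did not overlap.

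Of the 4 kinetochore and passenger genes, Cenpe and Cenpf fell in PC2 against Luc, Birc5 rose and Cenpa did not pass. Cenpf, a large kinetochore protein, had CPM of 138, 132 and 143 in the Non surgery, 96.7, 91.1 and 96.5 in the Luc and 67.7, 73.5 and 69.9 in the PC2 libraries. Cenpe, the kinetochore kinesin, had CPM of 112, 110.0 and 113 in the Non surgery, 78.1, 82.0 and 82.2 in the Luc and 63.7, 61.8 and 62.3 in the PC2 libraries. Both fell in each step without overlap of libraries, with log2 fold changes of -0.97 ± 0.0446 and -0.83 ± 0.0383 for PC2 against Non surgery (adjusted p = 7.59e-12 and 7.59e-12). Cenpa, the histone H3 variant that marks centromeres, fell to a smaller extent (-0.30) and had 0.06 ± 0.0375 in PC2 against Luc (adjusted p = 0.238). Birc5, the survivin subunit of the passenger complex, had CPM of 106, 107 and 102 in the Non surgery, 88.8, 89.1 and 87.6 in the Luc and 111, 110.4 and 111 in the PC2 libraries. The Luc libraries were lowest and the PC2 libraries lay just above the Non surgery libraries. It fell 1.19-fold in Luc libraries and rose 1.25-fold in PC2 libraries (0.32 ± 0.0358, adjusted p = 3.27e-06), back to 0.08 against Non surgery (adjusted p = 0.0669). With library size alone as the scale, that last value was 0.24 (adjusted p = 2.36e-05), and it also passed without Non surgery replicate 2 (adjusted p = 0.0464) and under a stricter filter on low counts (adjusted p = 0.0387).

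The replication genes opened with origin licensing. Cdc6, which loads the helicase, had CPM of 48.6, 47.3 and 48.4 in the Non surgery, 62.2, 63.0 and 62.5 in the Luc and 56.3, 53.6 and 54.7 in the PC2 libraries. The Luc libraries were highest, the Non surgery libraries lowest and the PC2 libraries between, with 0.38 ± 0.0416 in the first and -0.19 ± 0.0409 in the second step (adjusted p = 6.34e-07 and 0.00183). Cdt1, its partner, had CPM of 45.6, 53.3 and 44.5 in the Non surgery, 55.1, 55.6 and 54.1 in the Luc and 45.6, 48.0 and 50.8 in the PC2 libraries. The Luc libraries were highest, and PC2 and Non surgery libraries overlapped. Its rise of 0.20 ± 0.0625 (adjusted p = 0.0113) ended without Non surgery replicate 1 or 3 (adjusted p = 0.0562 and 0.0732), and its fall of -0.19 ± 0.0619 without Luc replicate 1 or 2 or PC2 replicate 1 or 2 (adjusted p = 0.0643, 0.0689, 0.106 and 0.0608).

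The 6 subunits of the MCM helicase moved together: all 6 rose in Luc and all 6 fell back in PC2 libraries. Mcm6 had CPM of 123, 126 and 129.9 in the Non surgery, 173, 177 and 172 in the Luc and 149.8, 145 and 144 in the PC2 libraries. Mcm3 had CPM of 105, 106 and 103 in the Non surgery, 137, 139 and 138 in the Luc and 123, 126 and 125 in the PC2 libraries. Mcm2 had CPM of 110.4, 115 and 112 in the Non surgery, 134, 138 and 137 in the Luc and 117, 119 and 125 in the PC2 libraries. The same order, Non surgery under PC2 under Luc, held in every library of these 3 genes. The rises in Luc libraries ran from 0.22 (Mcm4) to 0.46 (Mcm6), with Mcm2, Mcm5 and Mcm7 at 0.28, 0.26 and 0.28; the falls in PC2 libraries ran from -0.10 to -0.25. Mcm7 had CPM of 133, 134 and 139 in the Non surgery, 164, 162 and 167 in the Luc and 142, 138 and 139 in the PC2 libraries. Its log2 fold change in PC2 against Luc was -0.23 (adjusted p = 5.99e-05), and the PC2 libraries overlapped the Non surgery libraries. The call of Mcm4 in PC2 against Luc was at the threshold (adjusted p = 0.0496) and ended when any of the libraries but Non surgery replicate 2 was left out (adjusted p = 0.051 to 0.197), and also under each of the 3 other scalings, without the filter on low counts and in DESeq2. Against Non surgery, 4 of the 6 were still higher in PC2 libraries, of which Mcm2 (0.10, adjusted p = 0.0321) lost its call without Non surgery replicate 1 or 3 or PC2 replicate 2 or 3 (adjusted p = 0.101, 0.0806, 0.054 and 0.176).

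At the replication fork, Pcna stayed high and Pola1 did not. Pcna, the sliding clamp, had CPM of 178, 174 and 189 in the Non surgery, 249.8, 250.2 and 238 in the Luc and 249, 247 and 237 in the PC2 libraries. The 6 operated libraries lay above all 3 Non surgery libraries and Luc and PC2 overlapped, with 0.45 ± 0.0379 in the first (adjusted p = 2.46e-08) and -0.01 ± 0.0376 in the second step (adjusted p = 0.881). Pola1 had CPM of 33.0, 30.1 and 35.1 in the Non surgery, 37.8, 39.3 and 40.7 in the Luc and 27.6, 26.5 and 26.2 in the PC2 libraries. The Luc libraries were highest and the PC2 libraries lowest, without overlap. It rose by 0.26 ± 0.0593 in Luc libraries and had -0.55 ± 0.0597 in PC2 against Luc (adjusted p = 2.59e-06), and fell under its unoperated level (-0.29, adjusted p = 0.000599). Prim1, the primase that works with it, rose slightly (0.13, adjusted p = 0.0364), a call lost without Non surgery replicate 1 or 3, Luc replicate 1 or 3 or PC2 replicate 2 or 3 (adjusted p = 0.147, 0.101, 0.127, 0.108, 0.0573 and 0.0549), and had -0.01 in the second step. Gins2, a subunit of the helicase activator, had CPM of 5.99, 6.44 and 6.31 in the Non surgery, 8.78, 7.67 and 7.54 in the Luc and 8.38, 8.47 and 7.40 in the PC2 libraries. It was higher in both operated groups (0.36 and 0.37), but 67.3% of its exon bases lie opposite exons of Gse1, its count is low, and its call in Luc libraries ended without Luc replicate 1 (adjusted p = 0.0618). Cdc45 passed in no comparison, with values of 0.04, -0.05 and -0.01; with library size only it passed as higher in Luc and in PC2 against Non surgery (0.20 and 0.15, adjusted p = 0.0109 and 0.0464).

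Genes of nucleotide supply had a median of 0.10 in Luc against Non surgery, the nearest to 0 of the 9 role groups. Tyms, thymidylate synthase, had CPM of 31.2, 32.8 and 32.1 in the Non surgery, 39.7, 38.9 and 37.1 in the Luc and 39.3, 37.8 and 38.6 in the PC2 libraries. It rose 1.20-fold in Luc libraries (adjusted p = 0.000162) and had 0.27 in PC2 against Non surgery, with overlapping Luc and PC2 libraries. Rrm2, the regulated subunit of ribonucleotide reductase, had CPM of 231, 226 and 236 in the Non surgery, 246, 248 and 247 in the Luc and 231, 238 and 237 in the PC2 libraries. Luc libraries were highest, and PC2 and Non surgery libraries overlapped. Its rise in Luc libraries was 0.10 ± 0.0314 (adjusted p = 0.0145), a call lost with DESeq2's size factors (adjusted p = 0.0514), without the filter on low counts (0.0732), in DESeq2's Wald test (0.065) and in the fit of only these 2 groups (0.126). Rrm1, the large subunit, had CPM of 246, 234 and 241 in the Non surgery, 229, 233 and 233 in the Luc and 201, 205 and 195 in the PC2 libraries. The Non surgery libraries were highest and the PC2 libraries lowest. Rrm1 did not pass in Luc libraries (-0.05, adjusted p = 0.19, but 0.0499 without Non surgery replicate 2) and fell in PC2 against Luc by 0.21 (adjusted p = 0.000136). Under library size alone its first value was 0.11, with an adjusted p of 0.0105, so the direction of Rrm1 in Luc against Non surgery turns with the scale. In PC2 against Non surgery Rrm1 was lower (-0.26, adjusted p = 3.41e-06).

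The ratio of summed mitosis to summed replication levels within a library does not depend on the scaling between libraries. In Non surgery libraries it was 2.33 ± 0.034, against 1.49 ± 0.010 in those labelled Luc and 1.41 ± 0.0094 in those labelled PC2. Mki67 made up much of the sum; without it the ratios were 1.47 ± 0.012, 0.974 ± 0.0062 and 0.972 ± 0.0056, so Luc and PC2 then differed by less than their SD. In the cell cycle genes that are no members it was 2.86 ± 0.056, 1.98 ± 0.0094 and 1.97 ± 0.011. An exact permutation test of 3 libraries against 3 cannot give a two-sided p under 0.1, and these are repeats of 1 pool, so no p is given for a ratio.

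**Figure D3:**
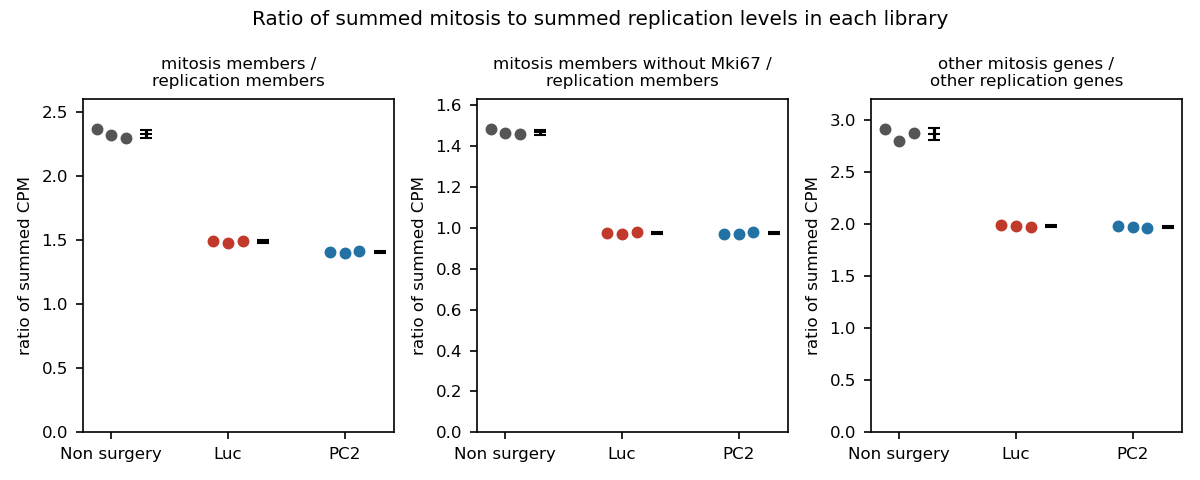
Ratio of summed CPM of mitosis genes to summed CPM of replication genes in each library (points), with the group mean and SD (black), for the members, the members without Mki67 and the other cell cycle genes; axes start at 0. The Non surgery libraries stand above both operated groups in each panel (2.33 against 1.49 and 1.41 in the left one), and Luc and PC2 lie together once Mki67 is left out.

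Other genes of the cycle, listed from general knowledge and without members, showed the same split. Of 78 other mitosis genes 60 fell and 1 (Ncapg2, chosen after its value was seen) rose in Luc against Non surgery, with a median of -0.30. Among 48 other replication genes there were 26 rises and 2 falls (median 0.21). Of all genes tested, 27.7% were called lower and 31.1% higher. The largest falls were those of Psrc1 (-2.27 ± 0.0737) and Gtse1 (-1.48), both microtubule-linked and known targets of p53, then Kif18b (-0.71) and Hmmr (-0.71). Psrc1 had CPM of 58.6, 61.0 and 61.5 in the Non surgery, 13.7, 11.3 and 12.6 in the Luc and 13.3, 12.0 and 11.1 in the PC2 libraries; the operated libraries of both kinds lay far below the unoperated ones. The largest rises among replication genes were those of Dscc1 (0.71), Uhrf1 (0.57), which guides maintenance of DNA methylation, the histone mRNA binding Slbp (0.56) and the uracil glycosylase Ung (0.53).

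In PC2 against Luc libraries, 24 of the 78 other mitosis genes were called lower, 6 higher and 48 neither; Aspm (-0.65), Mastl (-0.53), Kif20b (-0.46) and the condensin subunit Smc2 (-0.43) moved most, and the median was -0.11. The share called lower, 24 of 78, stands above the 18.6% of all genes, but most of the list did not pass. Of the 48 other replication genes 10 fell, a share near that background, and 2 rose, with Ticrr (-0.38), the maintenance methyltransferase Dnmt1 (-0.35), Clspn (-0.29) and Prim2 (-0.29) first. Against Non surgery, PC2 libraries had 62 of 78 other mitosis genes lower and 3 higher, and 22 of 48 replication genes higher and 7 lower. Of all genes tested, 31.2% were called lower and 31.5% higher. Among these replication genes were Dut (0.64), Gins1 (0.59) and Fen1 (-0.86). Fen1 had 10 to 20 counts per library and 84.2% of its exon bases shared with other genes, so its value is uncertain.

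Of 31 regulators of the cycle, 9 rose and 12 fell in Luc libraries (median -0.07), beside 31.1% of all genes higher and 27.7% lower, so nothing is read from these counts. Ccnd1, the D-type cyclin that starts the cycle, rose by 0.77 ± 0.0733 in Luc libraries and fell by 0.42 in PC2 libraries (adjusted p = 0.000251). E2f5 rose (0.81), E2f6, a repressor of the E2F family, fell (-1.06), and Mycn fell (-1.59) at 15 to 60 counts per library. E2f1 (0.53) and the S phase cyclin gene Ccne1 (0.74) rose in Luc libraries, and Foxm1 (-0.25) fell. All 3 were chosen from the 31 after their values were seen. The part of any regulator in the split between mitosis and replication genes was not tested. In PC2 against Luc libraries 10 regulators fell and 3 rose, beside 18.6% of all genes lower and 16.1% higher. Of the retinoblastoma family, Rb1 had -0.36 in the first and -0.50 in the second step, Rbl1 had -0.32 in the second, and Rbl2 reached -0.80 against Non surgery, while Lin37 of the MuvB core rose by 0.35 in PC2 against Luc (adjusted p = 0.0176).

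**Figure D4:**
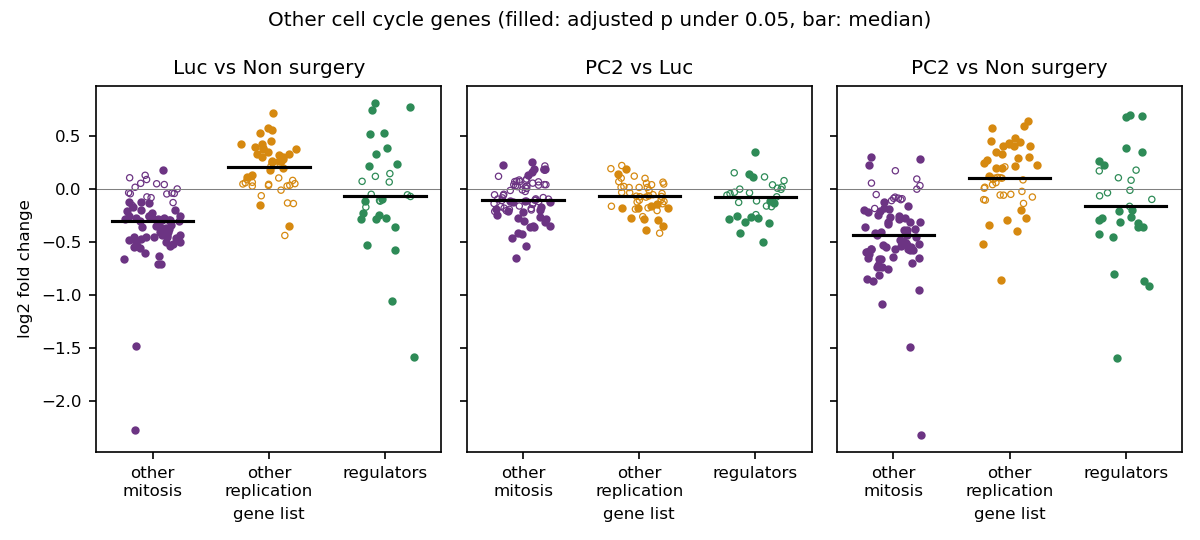
log2 fold change of each other mitosis gene (78), other replication gene (48) and regulator (31) in the 3 comparisons; filled points passed an adjusted p of 0.05, open points did not, and bars are medians. In Luc against Non surgery the medians are -0.30, 0.21 and -0.07; in PC2 against Luc they are -0.11, -0.07 and -0.07.

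Markers of the cells that could carry these transcripts moved with the first comparison. In bulk tissue, fewer cells of a type and less RNA per cell cannot be told apart. Of all genes tested, 31.1% were called higher and 27.7% lower in this comparison. The lists are short, and counts near these shares are not read as a result. All 12 erythroid precursor genes fell, and their summed level went from 6478 to 6638 CPM in Non surgery down to 4142 to 4218 in Luc libraries, with Alas2 at -0.90 and Rhag at -0.88. All 5 granulocyte progenitor genes fell (1248 to 1317 CPM down to 763.1 to 811.8), led by Ms4a3 (-1.06) and Elane (-0.74), and 6 of 7 genes of maturing neutrophils fell and 1 rose. All 9 B cell precursor genes rose (98.4 to 105.1 CPM up to 308.6 to 315 CPM), with Igll1 at 4.19 and Vpreb1 at 3.92. All 6 chondrocyte genes rose (461.7 to 499.4 CPM up to 3317 to 3406), all 5 osteoblast and all 4 fibroblast genes rose, and all 9 fast muscle genes fell (49728 to 51213 CPM down to 21781 to 22309). All 6 megakaryocyte genes fell, 4 of 5 genes of stem and early progenitor cells fell and 1 (Cd34) rose, 3 of 5 T cell genes and 2 of 3 tested satellite cell genes fell, and 3 of 5 macrophage and 4 of 4 endothelial genes rose. Keratinocyte genes were near the floor: Krt14 had 0 counts in all 9 libraries and Krt5 and Krt1 at most 1. Counts from mitochondrial genes took 9.05% to 10.9% of the Non surgery and 5.0% to 5.8% of the Luc libraries. The part of these cell types and of the mitochondrial share in the split between mitosis and replication genes was not tested.

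In PC2 against Luc libraries the marker lists went different ways. Beside them, 16.1% of all genes tested were called higher and 18.6% lower, and counts near these shares are not read as a result. Of the 12 erythroid precursor genes 3 rose and 3 fell (3860 to 3938 CPM summed in PC2 libraries), and 3 of 5 granulocyte progenitor genes rose (872.4 to 898.5 CPM). B cell precursor genes fell in 8 of 9 (238.6 to 239.4 CPM), with Dntt at -1.02 and Rag1 at -0.94, and all 4 endothelial genes fell (272.3 to 280.9 CPM against 348.2 to 360.1 in Luc). All 6 chondrocyte genes rose (5437 to 5455 CPM), and 8 of 9 fast muscle genes rose. Of 5 osteoblast genes 4 rose, and of 7 genes of maturing neutrophils 2 rose and 4 fell. Of 4 fibroblast and of 5 stem and early progenitor genes, 2 rose and 2 fell in each list. Megakaryocyte genes rose in 2 and fell in 1 of 6. Macrophage and T cell genes each rose in 1 and fell in 2 of 5. Of the tested satellite cell and keratinocyte genes 0 passed. The part of these cell types in the lower level of the members was not tested.

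Fold changes varied with transcript length in both comparisons of PC2 libraries. Among all 14803 tested genes with a principal transcript, the median log2 fold change of PC2 against Luc ran from 0.155 under 1 kb to -0.186 at 8 kb and over, where 52.4% of genes were called lower. Longer members also had lower values. Across the 36 genes Pearson's r between log2 length and log2 fold change was -0.72 (Spearman's rho -0.65). Over all 14803 genes the relation was weaker, with r of -0.104 and rho of -0.273. These values are a description over genes of the same libraries. Cenpf (11130 bases), Mki67 (10061) and Cenpe (7910) were the longest members and among those with the largest falls, and Birc5 (947 bases) was the shortest and rose most; Pola1 (5346) and Cdk1 (4375) lay furthest below and among the highest above the medians of their length. After the median of genes of like length was subtracted, 31 of 36 members were below 0, as many as before it. The medians were then -0.20 for mitosis and -0.15 for replication genes. This takes away the trend of all genes, which is weaker than that of the members, and so leaves part of the members' own relation to length. Birc5, Aurka and Cdk1 had 0.17, 0.11 and 0.16 after it. The part of length in the changes of the members was not tested. In Luc against Non surgery r was -0.16 over the members, and the median by length lay between 0.001 and 0.047. In PC2 against Non surgery r was -0.475 over the members (-0.763 over the mitosis genes), but -0.009 over all 14803 genes (rho -0.076). The median by length ran from 0.102 under 1 kb to -0.192 at 8 kb and over.

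**Figure D5:**
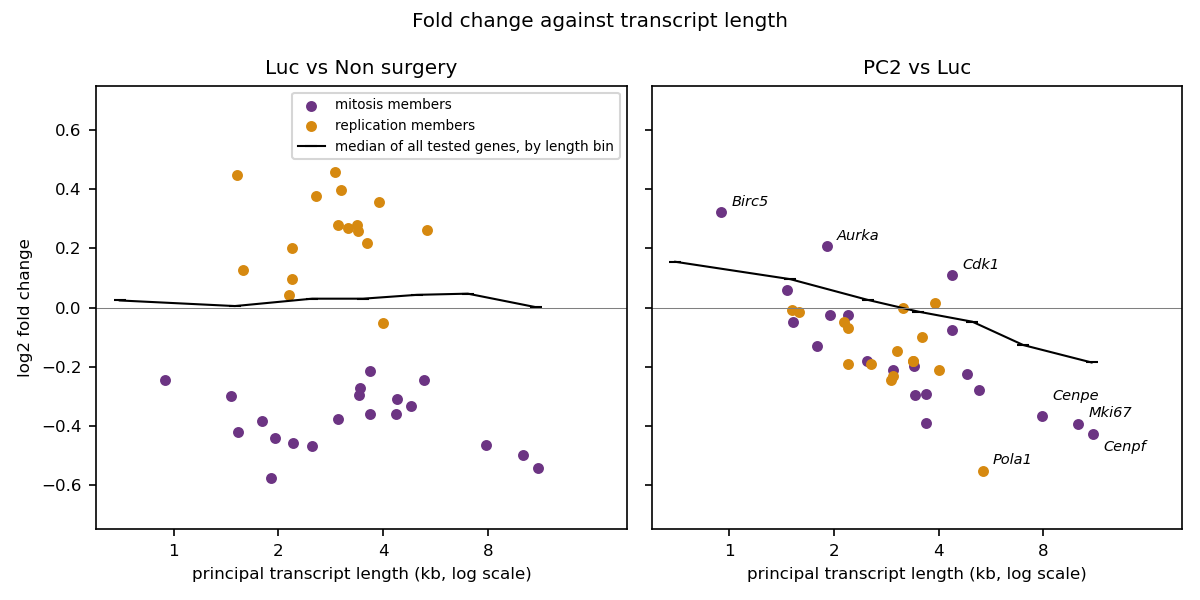
log2 fold change of each member against the length of its principal transcript (kb, log scale) for Luc against Non surgery (left) and PC2 against Luc (right); purple marks mitosis and orange replication genes, and the black line joins the medians of all tested genes in 7 length bins. On the right the line falls from 0.155 to -0.186 and most members lie under it, with Birc5, Aurka, Cdk1, Tyms and Gins2 above the median of their bin; on the left the line is flat, with all mitosis genes below it and all replication genes but Rrm1 above it.

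The scale between libraries bears on the sizes given above. With library size only, the median of all genes moved from 0.025 to 0.185 in Luc against Non surgery and from 0.010 to 0.168 in PC2 against Non surgery, and the calls over all genes went from 5431 higher and 4848 lower to 7754 and 3304, and from 5505 and 5447 to 7607 and 3761. The split of the members by phase held on that scale, with 17 mitosis genes lower and 0 higher and 16 replication genes higher and 0 lower in Luc against Non surgery; Birc5, Bub1 and Bub1b lost their calls (adjusted p = 0.0525, 0.11 and 0.241). For PC2 against Non surgery the members went from 8 higher and 21 lower to 15 and 18.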

How the data were processed

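The deposited values are raw counts of reads for each Ensembl gene; every library has its own table, whose 5 HTSeq summary lines were dropped before library sizes were computed. HISAT2, HTSeq, DESeq2 and the mm10 build are named without versions in the submitters' processing notes; annotation release and strand setting are not given in the sources used here. Reads outside annotated genes were 7.29% to 9.25% and reads HTSeq left as ambiguous 5.72% to 6.65% of each library. Per the labels, RNA was extracted with TRIzol and libraries made with a NEBNext Ultra kit. Symbols, positions, exon overlap and transcript lengths were read from the GENCODE M21 annotation of GRCm38, which is mm10 (53274 IDs matched, 105 did not), and promoters from RefSeq.

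Counts were tested with edgeR 4.0.16 in R 4.3.3: filterByExpr (minimum count 10), TMM, and a quasi-likelihood fit of all 9 libraries with a group term. Contrasts were two-sided, with Benjamini-Hochberg adjustment over 17478 genes and calls at an adjusted p under 0.05. A standard error is the size of the log2 change divided by the root of the F statistic. On simulated counts for PC2 against Luc (17085 genes), 79.6% of 1.5-fold and 93.8% of 2-fold changes were recovered. Every simulated gene had the same dispersion. No change under 1.5-fold was simulated, so recovery of changes as small as those of the members in this comparison is not known. Library pairs within a group differed beyond counting noise (chi-square per degree of freedom 3.94 to 8.67).

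The members and lists were chosen with earlier results of these data known. All members are named; values per library are given for 7 fixed genes and the 2 largest called changes of each role group and comparison, plus Birc5, chosen after its values were seen; of each other list, up to 4 (markers: 2) of the largest called changes. Alternatives were other size factors, filters and tools, 2-group fits, a replicate block and leaving out each library; transcript length was added after seeing the data.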

Additional observations from a re-analysis of the deposited data

How the results depend on the processing

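Counts of members and of all genes called stayed within 1.5 times the given values under all alternatives run, except that 15 instead of 8 members were higher in PC2 against Non surgery with library size only. Over the 9 fits that leave out 1 library, the counts in Luc against Non surgery ran from 12 to 14 members higher and 20 to 21 lower (all genes 5003 to 5428 and 4536 to 4875), in PC2 against Luc from 2 to 3 and 19 to 22 (2215 to 3082 and 2706 to 3468), and in PC2 against Non surgery from 7 to 10 and 21 to 21 (5108 to 5500 and 5104 to 5496). The medians of mitosis genes ran from -0.40 to -0.36, -0.20 to -0.17 and -0.52 to -0.50 in these comparisons, and those of replication genes from 0.25 to 0.28, -0.17 to -0.14 and 0.084 to 0.11. With library size only, the medians were -0.21 (mitosis) and 0.43 (replication) in Luc against Non surgery and -0.35 and 0.26 in PC2 against Non surgery. Fits of only the 2 groups compared gave -0.39 and 0.24 in Luc against Non surgery, and DESeq2's size factors in edgeR and its Wald test gave 0.24 and 0.25 for replication genes there. Subtracting the median of genes of like transcript length, chosen after seeing the data, gave -0.40 and 0.23 in Luc against Non surgery and -0.54 for mitosis genes in PC2 against Non surgery. The cause of these moves was not tested. Values that changed sign belong to genes that did not pass as reported; 2 of them passed at the turned sign, both with library size only: Rrm1 at 0.11 in Luc against Non surgery (adjusted p = 0.0105) and Cdc45 at 0.15 in PC2 against Non surgery (adjusted p = 0.0464). In PC2 against Luc, Pcna had 0.0032 with DESeq2's size factors and 0.0034 in its Wald test, and Tyms 0.012 in both, 0.0017 with scaling without mitochondrial and fast muscle genes, 0.0030 without a filter, 0.0042 with a stricter one and 0.0027 in the 2-group fit. Leaving out 1 library, Cdc45 ran from -0.015 to 0.092, from -0.10 to 0.0061 and from -0.059 to 0.026 in the 3 comparisons, Cdt1 from -0.042 to 0.093 in PC2 against Non surgery, and, in PC2 against Luc, Gins2 from -0.023 to 0.090, Pcna from -0.030 to 0.016, Plk1 from -0.059 to 0.0063 and Tyms from -0.025 to 0.022. The replicate numbers do not pair the libraries: deviations of same-numbered libraries correlated at -0.027 to 0.057, and a fit with the number as a block left 14 members higher and 20 lower in Luc against Non surgery, 3 and 22 in PC2 against Luc and 8 and 21 in PC2 against Non surgery. DESeq2's Wald test ended the calls of Cdc20, Cdk1, Cdt1 and Mcm4 in PC2 against Luc, of Gins2, Prim1 and Rrm2 in Luc against Non surgery and of Gins2 and Mcm2 in PC2 against Non surgery. Calls were also lost without the filter on low counts (Cdk1 and Cdc20 in PC2 against Luc, adjusted p = 0.0833 and 0.0586; Prim1 in Luc against Non surgery, 0.162; Mcm2 in PC2 against Non surgery, 0.0844), with DESeq2's size factors (Prim1 0.0791, Mcm2 0.0507), in the 2-group fit (Prim1 0.131, Mcm2 0.0643) and, in PC2 against Non surgery, with library size only (Cdk1 0.4, Cenpa 0.0683, Pola1 0.0722). Depth limits Gins2 most among the members; pooling limits every p-value to technical spread.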
